A study of Mus musculus with 6 samples.

Results

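Levels of 10 genes of the CC chemokine system, chosen by name, were examined in subcutaneous CT26.WT tumors: the ligands Ccl2, Ccl7, Ccl8, Ccl12, Ccl6, Ccl9, Ccl17 and Ccl22 and the receptors Ccr1 and Ccr2. They are 10 of the 55487 genes in the count table, and each was found on 1 row. RNA-seq covered 6 tumors, of which 3 were controls and 3 had received IFN-γ. All grew from CT26.WT, a colon carcinoma line of BALB/c origin whose genotype the labels give as WT. The labels name BALB/c as the strain, and the study's mice were male and 4 weeks old when purchased. Into the tail vein, mice of the IFN-γ group were given 100 µL of the cytokine at a concentration of 100 ng/ml, repeated every 48 h, and control mice were given 100 µL of PBS. The groups thus share the line and the strain and differ by design in the cytokine. The study reports that these tumors came from immunocompetent mice. In such mice, it found that tumors under IFN-γ grew faster and ended larger than those of controls. The labels give the source as subcutaneous tumor and state no sort, so RNA of tumor cells and host cells is measured together, and the tumors come from a single line. The study's legend for these RNA-seq data counts fewer IFN-γ tumors than the labels do and does not say which, and all 3 labelled tumors were used here. The labels do not state that the 3 libraries of a group came from separate mice, so the p-values measure the spread between these samples.

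CC chemokines are small secreted proteins named for a pair of adjacent cysteines near the amino end. They bind receptors with a multi-helix fold on leukocytes and direct these cells along a gradient. CCL2, CCL7, CCL8 and the mouse protein CCL12 are the monocyte chemoattractant proteins. CCR2, the receptor of CCL2, CCL7 and CCL12, is known for bringing classical monocytes from marrow and blood into tumors, where they become macrophages. Mouse CCL8 is also known as a ligand of CCR8. CCL6 and CCL9 act on CCR1, a receptor of monocytes, macrophages and neutrophils. CCL17 and CCL22 are made mainly by dendritic cells and macrophages and attract regulatory T cells and Th2 cells through CCR4.

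The 10 genes lie in 4 places of the mouse genome (build GRCm38, mm10 in the labels, GENCODE M21 annotation), and all are protein-coding. On chromosome 11, Ccl2 spans 82035571 to 82037453, Ccl7 82045712 to 82047525, Ccl12 82101845 to 82103400 and Ccl8 82115185 to 82116799, all on the plus strand. Ccl7 starts 8.26 kb after the end of Ccl2, and Ccl8 11.8 kb after the end of Ccl12. Further along the same chromosome, Ccl9 (83572919 to 83578636) and Ccl6 (83587882 to 83593087) stand on the minus strand, 9.25 kb apart. Ccl22 (94745590 to 94751699) and Ccl17 (94810453 to 94812036) lie on the plus strand of chromosome 8, 58.8 kb apart with 1 protein-coding gene between them. Ccr1 (123962124 to 123968692, minus strand) and Ccr2 (124101950 to 124113557, plus strand) are both on chromosome 9. No exon of the 10 genes overlaps an exon of another gene in this annotation. The monocyte chemoattractant proteins arose by duplication, and how the counting treated reads shared between such copies is not given in the sources used here.

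The promoters of 4 ligands are shown because their levels are set against each other in what follows: Ccl8 and Ccl12 as neighbors whose fold changes had opposite signs, Ccl9 as the promoter with most motif matches, and Ccl17 as the gene whose groups did not overlap. RefSeq windows (GRCm38.p6) were at hand for 8 of the 10 genes, and the 250 bases before the start are printed. Capitals mark a TATA box (TATAAA), a gamma-activated sequence (GAS, TTCNNNGAA), an AP-1 site (TGANTCA) or an NF-κB consensus on either strand.
Ccl8 (chr11:82114935-82115184, plus strand): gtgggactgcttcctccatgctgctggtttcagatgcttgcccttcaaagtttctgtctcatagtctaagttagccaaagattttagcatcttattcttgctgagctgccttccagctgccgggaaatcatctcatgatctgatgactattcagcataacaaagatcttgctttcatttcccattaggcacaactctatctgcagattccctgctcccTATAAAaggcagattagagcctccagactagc
Ccl12 (chr11:82101595-82101844, plus strand): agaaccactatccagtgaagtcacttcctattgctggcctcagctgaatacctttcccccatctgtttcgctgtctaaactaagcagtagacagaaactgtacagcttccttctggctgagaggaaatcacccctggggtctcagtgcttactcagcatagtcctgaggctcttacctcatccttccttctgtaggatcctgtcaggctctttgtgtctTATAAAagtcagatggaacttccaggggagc
Ccl9 (chr11:83578637-83578886, minus strand): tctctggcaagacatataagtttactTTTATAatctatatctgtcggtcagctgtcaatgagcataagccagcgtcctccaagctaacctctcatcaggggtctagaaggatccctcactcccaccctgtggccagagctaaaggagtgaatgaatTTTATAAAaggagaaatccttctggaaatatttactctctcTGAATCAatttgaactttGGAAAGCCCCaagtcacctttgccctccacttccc
Ccl17 (chr8:94810203-94810452, plus strand): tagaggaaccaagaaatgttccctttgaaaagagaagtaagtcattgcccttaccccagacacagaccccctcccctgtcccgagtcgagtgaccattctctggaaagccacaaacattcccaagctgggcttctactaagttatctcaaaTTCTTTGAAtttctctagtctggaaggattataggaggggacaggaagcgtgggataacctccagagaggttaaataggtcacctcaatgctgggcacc

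In Ccl8 and Ccl12, the TATA box began 32 and 31 bases before the start. TATAAA was found in 3 of the 8 windows (Ccl8, Ccl12 and Ccl9), against 12.4% of the 32851 mouse promoter windows of this length. This motif was added to the search after the sequences were seen, so its count is a description and no test of enrichment. All 250 bases were searched in each of the 8, counted from the RefSeq start, which lies 94 bases inside the GENCODE gene for Ccl22 and 233 bases inside it for Ccr2. The GAS letters, which STAT dimers bind after IFN-γ signaling, stood in the Ccl17 window alone, 99 to 91 bases before the start, and in 7.02% of all windows. The AP-1 letters stood in Ccl9 alone (6.75% of all windows), and the NF-κB consensus in Ccl9 and Ccr1 (7.25% of all windows). The core of the interferon-stimulated response element (ISRE, GAAA, any 2 letters and GAAA again) was in 0 of the 8, against 2.98% of all windows. In Ccl9, TATAAA began 224, 94 and 92 bases before the start on one strand or the other, the last pair overlapping. A match is a run of letters in this window and not a site shown to be bound.

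Libraries held from 15759300 to 17559680 counts on genes. Levels are given in CPM, which is a gene's count relative to the library's total on the genes tested, scaled by TMM factors between 0.974 and 1.02. At this depth a count of 0 allows up to 0.169 to 0.188 CPM, counting error only, and each of the 10 genes stood above this in every tumor. Markers of myeloid cells were high in all tumors, with Csf1r, the receptor of macrophage colony-stimulating factor, at 246 to 384 CPM. Foxp3, the transcription factor of regulatory T cells, was at 1.24 to 5.38 CPM. Epithelial markers were low for tumors of a carcinoma line, with Epcam at 0.0571 to 0.928 CPM and Krt18 at 6.41 to 10.4 CPM. Keratinocyte and other skin genes summed to 64.6 CPM in IFN-γ tumor 3 and to at most 12.4 CPM in the other tumors. Skeletal muscle genes summed to 813 CPM in control tumor 3 and to 121 to 432 CPM in the others. In whole tumors, fewer cells of a type and less RNA per cell cannot be told apart.

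To ask whether IFN-γ changed the signals that recruit monocytes and regulatory T cells, each gene was compared between the groups with edgeR's quasi-likelihood test across all 15114 genes tested, with Benjamini-Hochberg adjustment. All 10 genes passed the filter on low counts. With all 6 tumors, 0 of the 10 passed an adjusted threshold of 0.05, where 0.112% of all genes tested did (0.0794% as higher and 0.0331% as lower). At an unadjusted p under 0.05 there was 1 of 10, Ccr2, against 10.2% of all genes (5.74% higher and 4.44% lower). DESeq2 and limma-voom also called 0 of the 10. The median log2 fold change of the 10 genes was 0.17, beside 0.0015 for all genes tested, with 7 of 10 above 0 (50.4% of all genes) and 3 below. The adjusted p ran from 0.361 for Ccr2 to 0.999 for Ccl22. Without IFN-γ tumor 3, Ccr2 and Ccl8 passed as higher, 2 of 10 genes against 2.46% of the 15487 genes tested then, and 0 of 10 passed as lower (0.723% of all genes). When any other tumor was left out, 0 of the 10 passed.

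**Figure D1:**
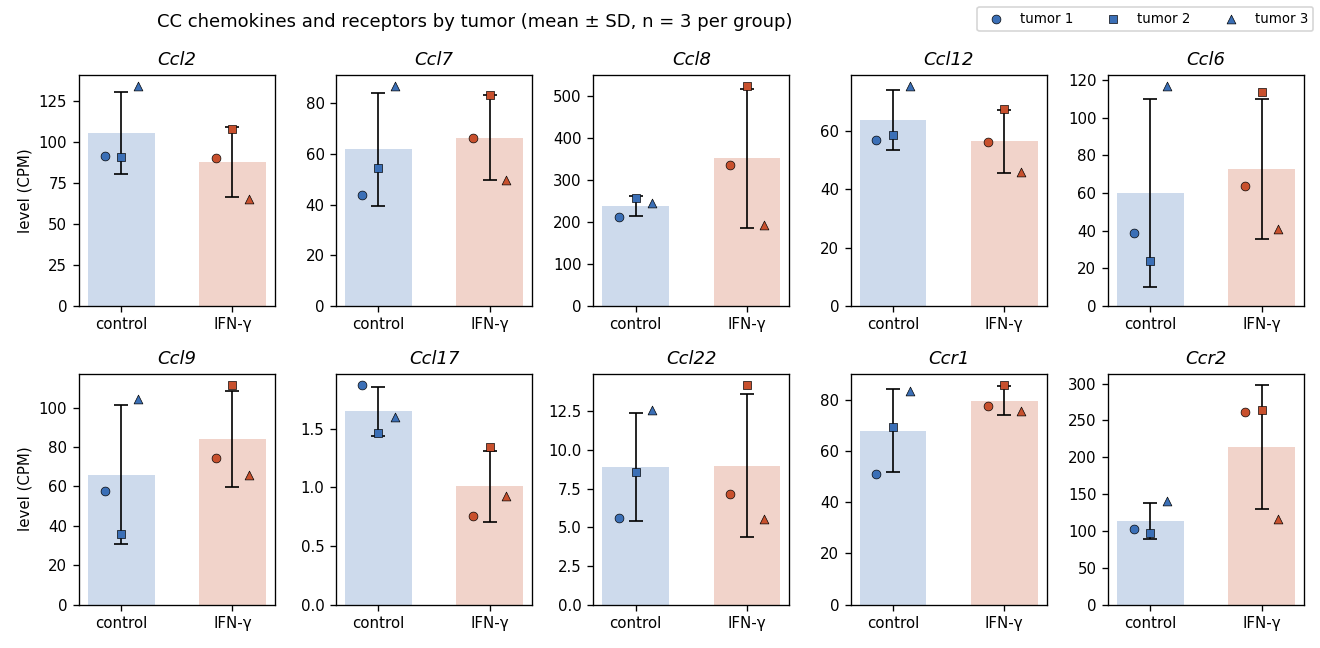
Level of each of the 10 genes in CPM (y axis) in the control and IFN-γ groups (x axis). Bars are means with SD for 3 tumors a group, and the circle, square and triangle are tumors 1, 2 and 3. Ccr2 reached 262 and 264 CPM in IFN-γ tumors 1 and 2, while IFN-γ tumor 3, at 116 CPM, stood among the controls.

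Ccr2, the receptor that carries monocytes to CCL2, had 102, 97.7 and 141 CPM in control tumors 1, 2 and 3. In IFN-γ tumors 1, 2 and 3 it had 262, 264 and 116 CPM. The first pair of IFN-γ tumors stood well above every control and the third stood between the controls, so the groups overlapped. Controls averaged 114 ± 24.0 CPM and IFN-γ tumors 214 ± 84.8 CPM (SD, n = 3 each). The log2 fold change was 0.91 with a standard error of 0.29 and a 95% interval from 0.24 to 1.58, and it did not pass the threshold (adjusted p = 0.361, edgeR). Without IFN-γ tumor 3, the one at the control level, it was 1.202 (adjusted p = 0.00964, edgeR). That pass follows from leaving out the value that disagreed. When any other tumor was left out, it ran from 0.73 to 1.09 and did not pass (adjusted p from 0.369 to 0.789, edgeR). With no filter on low counts and all 6 tumors, Ccr2 also passed (adjusted p = 0.0220, edgeR), where 0.558% of 26868 genes were called higher.

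Ccr1, the receptor of CCL6 and CCL9, differed less. It had 51.1, 69.7 and 83.6 CPM in the control tumors and 77.8, 86.2 and 75.7 CPM in the IFN-γ tumors. IFN-γ tumor 2 was the only one above every control, and control tumor 1 stood lowest. The log2 fold change was 0.23 with a standard error of 0.16 (adjusted p = 0.684, edgeR), and its 95% interval, from -0.14 to 0.59, leaves room for a rise of up to 1.51-fold.

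Ccl8 was the most abundant of the monocyte chemoattractant proteins. It had 211, 257 and 244 CPM in control tumors 1, 2 and 3, and 336, 525 and 194 CPM in IFN-γ tumors 1, 2 and 3. As for Ccr2, IFN-γ tumors 1 and 2 stood above every control, but here IFN-γ tumor 3 was the lowest of the 6. Controls averaged 238 ± 23.8 CPM and IFN-γ tumors 352 ± 166 CPM (SD, n = 3 each). Ccl8 had a log2 fold change of 0.57 with a standard error of 0.30 (adjusted p = 0.565, edgeR), and 0.85 without IFN-γ tumor 3 (adjusted p = 0.0353, edgeR). Without IFN-γ tumor 2, it was 0.16 (adjusted p = 0.954, edgeR), so the size rested on single tumors.

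For Ccl2, the main ligand of CCR2, no IFN-γ tumor exceeded the highest control. It had 91.5, 90.5 and 134 CPM in the control tumors and 89.8, 108 and 65.1 CPM in the IFN-γ tumors. Control tumor 3 was the highest and IFN-γ tumor 3 the lowest, and the other 4 lay between 89.8 and 108 CPM. Its log2 fold change was -0.27 with a standard error of 0.21 and a 95% interval from -0.74 to 0.20 (adjusted p = 0.724, edgeR). The interval bounds a rise at 1.15-fold.

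Ccl12, a mouse ligand of CCR2, followed Ccl2 closely. It had 56.9, 58.8 and 75.5 CPM in the control tumors and 56.1, 67.6 and 45.9 CPM in the IFN-γ tumors, with the same highest and the same lowest tumor. Its log2 fold change was -0.17 with a standard error of 0.16 (adjusted p = 0.773, edgeR). Over the 6 tumors, Pearson's r of log2 CPM between Ccl2 and Ccl12 was 0.99, and it was also 0.99 after the group means were taken out. This is a description of 6 libraries whose values share depth and tissue content.

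Ccl7, the neighbor of Ccl2 and a ligand of CCR1, CCR2 and CCR3, had 43.9, 54.5 and 86.9 CPM in the control tumors. In the IFN-γ tumors it had 66.2, 83.3 and 49.8 CPM. The values of the IFN-γ group lay inside the range of the control group. Ccl7 had a log2 fold change of 0.10 with a standard error of 0.26 (adjusted p = 0.930, edgeR). The sign turned when control tumor 1 or IFN-γ tumor 2 was left out, with a range from -0.093 to 0.42 over the fits that each left out 1 tumor.

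Ccl6 and Ccl9, ligands of CCR1 that macrophages make, varied most from tumor to tumor within the control group. Ccl6 had 38.8, 23.7 and 117 CPM in control tumors 1, 2 and 3, a 4.94-fold span, and 63.8, 114 and 40.6 CPM in the IFN-γ tumors. Ccl9 had 57.7, 35.6 and 105 CPM in the control tumors and 74.2, 112 and 65.9 CPM in the IFN-γ tumors. Control tumor 3 and IFN-γ tumor 2 were high for both genes, and control tumor 2 was the lowest for both. The log2 fold changes were 0.28 for Ccl6 (standard error 0.57, adjusted p = 0.908, edgeR) and 0.35 for Ccl9 (standard error 0.36, adjusted p = 0.803, edgeR). Their 95% intervals ran from -1.01 to 1.58 and from -0.47 to 1.16, the former the widest of the 10. Without control tumor 3, Ccl6 stood at 1.21 (adjusted p = 0.392, edgeR). Between the 2 genes, r of log2 CPM was 0.97 over the 6 tumors.

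Ccl22 and Ccl17, the ligands of CCR4, were low. Ccl22 had 5.63, 8.57 and 12.6 CPM in the control tumors and 7.14, 14.2 and 5.57 CPM in the IFN-γ tumors. The highest and the lowest tumor were both in the IFN-γ group, and the group means, 8.92 ± 3.49 and 8.98 ± 4.62 CPM (SD, n = 3 each), nearly coincided. Ccl22 had a log2 fold change of 0.0065 with a standard error of 0.39, and its 95% interval from -0.89 to 0.90 allows 1.87-fold in favor of the IFN-γ group (adjusted p = 0.999, edgeR).

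Ccl17 was the rarest of the 10, with 30, 26 and 28 counts in the control tumors and 13, 22 and 15 counts in the IFN-γ tumors. In CPM these were 1.88, 1.47 and 1.60 in the control group and 0.755, 1.34 and 0.928 in the IFN-γ group. Every IFN-γ tumor stood below every control, although control tumor 2 and IFN-γ tumor 2 differed by few reads. Among all genes tested, 7.5% had groups that did not overlap with the IFN-γ group lower, and 7.62% with it higher. Ccl17 had a log2 fold change of -0.70 with a standard error of 0.32 and a 95% interval from -1.44 to 0.035 (adjusted p = 0.504, edgeR). It stayed below 0 under every fit run, from -0.97 to -0.53 over those that left out 1 tumor. An exact permutation test of the difference in mean CPM, two-sided, gave p = 0.1, the smallest that 3 tumors against 3 allow (0.667 when adjusted over the 10 genes). For the other 9 genes that test gave p from 0.2 to 1, exact permutation.

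**Figure D2:**
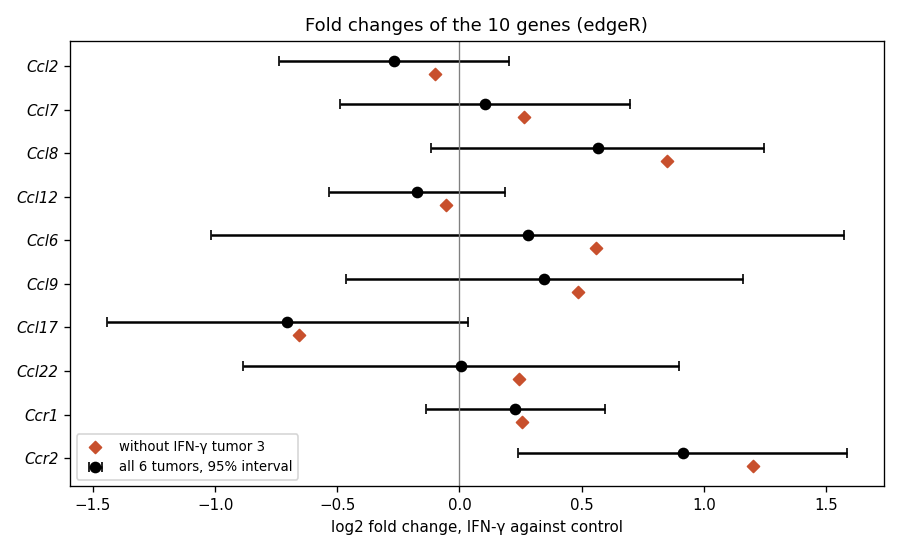
Log2 fold change between the IFN-γ and control groups (x axis) for the 10 genes (y axis). Black points with bars are the fit of all 6 tumors with its 95% interval, and red diamonds are the values without IFN-γ tumor 3. The interval of Ccr2, from 0.24 to 1.58, is the one that lies above 0, before adjustment for the 15114 genes.

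Levels of different genes were compared as CPM per kb of exon, using the union of exons in GENCODE M21. In the control group, Ccl8 stood first at 465 ± 46.6 CPM per kb (SD, n = 3), and its lowest control (413) was above the highest of Ccl12 (141). Ccl12 (119 ± 19.1), Ccl2 (92.6 ± 21.9) and Ccl7 (77.1 ± 27.98) followed, and the ranges of neighbors in this order overlapped. Then came Ccl6 (33.3 ± 27.9), Ccr1 (24.1 ± 5.76), Ccl9 (21.7 ± 11.6) and Ccr2 (16.8 ± 3.55), again with overlapping ranges between neighbors. The range of Ccl6 reached from 13.2 to 65.2 CPM per kb, so its place in the order depends on the tumor. Ccl22 (3.84 ± 1.499) and Ccl17 (3.20 ± 0.406) were lowest, overlapped each other, and both lay below the lowest Ccr2 value of 14.5. The ligands of CCR4 were thus the scarce members in these tumors and the monocyte chemoattractant proteins the abundant ones. In the IFN-γ group Ccl8 was first again, at 689 ± 325 CPM per kb (SD, n = 3), Ccr2 stood at 31.6 ± 12.5 and Ccl17 was last at 1.96 ± 0.589.

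**Figure D3:**
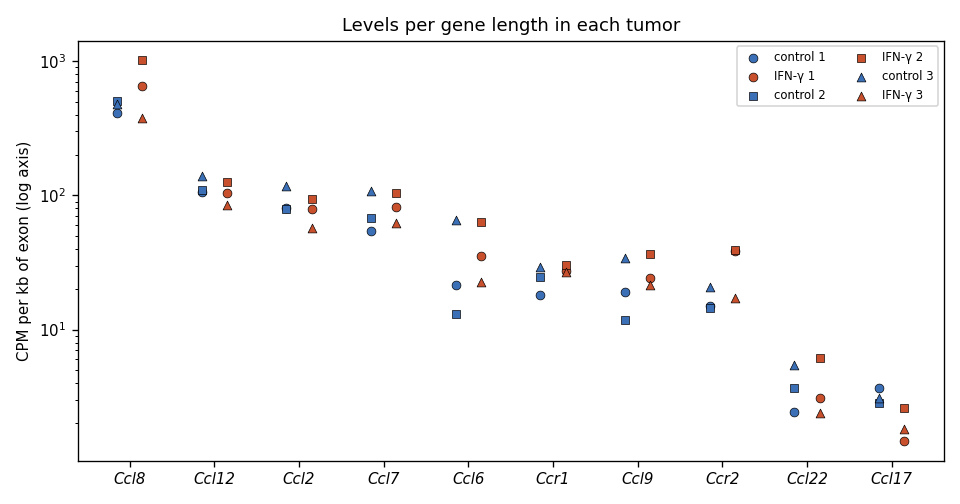
CPM per kb of exon on a log axis (y axis) for each gene (x axis), ordered by the control mean. Blue symbols are control tumors and red symbols IFN-γ tumors, with the circle, square and triangle for tumors 1, 2 and 3. Ccl8 stands above the other ligands in every tumor, and Ccl22 and Ccl17 stand below the rest in every tumor.

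Ratios of counts within a tumor do not depend on how libraries are scaled, so 6 ratios of genes that share a receptor, a locus or a cell type were compared. They were taken as log2 of CPM plus 0.5. The added 0.5 brings back some dependence on scaling, which matters where a gene is low, as Ccl17 was. The log2 ratio of Ccl8 to Ccl2 was 1.203, 1.502 and 0.86 in control tumors 1, 2 and 3. It was 1.90, 2.28 and 1.57 in the IFN-γ tumors. Every IFN-γ tumor stood above every control, IFN-γ tumor 3 included, although the lowest IFN-γ and the highest control value were close. The mean difference was 0.73, or 1.65-fold (two-sided exact permutation test, p = 0.1, the smallest possible with these groups, and 0.3 adjusted over the 6 ratios).

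As a share of the summed CPM of Ccl2, Ccl7, Ccl8 and Ccl12, Ccl8 made up 52.4%, 55.8% and 45.2% in control tumors 1, 2 and 3. It made up 61.3%, 67.0% and 54.7% in IFN-γ tumors 1, 2 and 3. The lowest IFN-γ share lay just under the highest control share, so the groups overlapped. The sum of the other ligands of this family, without Ccl8, was 192, 204 and 297 CPM in control tumors and 212, 259 and 161 CPM in IFN-γ tumors, with the highest and the lowest value both in tumors numbered 3.

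The log2 ratio of Ccl2 to its neighbor Ccl7 was 1.05, 0.73 and 0.62 in controls against 0.44, 0.37 and 0.38 in the IFN-γ tumors. The groups did not overlap either, with a difference of -0.40 (exact permutation, p = 0.1, adjusted 0.3). Ccl2 to Ccl12 stayed close to level, at 0.71 ± 0.11 in controls and 0.62 ± 0.099 in IFN-γ tumors (SD, n = 3 each). The difference of -0.092 had an exact permutation p of 0.4. The ratio of Ccr2 to Ccr1 was 0.99, 0.48 and 0.75 in controls against 1.74, 1.61 and 0.61 in the IFN-γ tumors, and that of Ccr2 to Csf1r averaged -1.27 in controls against -0.71 in the IFN-γ tumors. In both, IFN-γ tumors 1 and 2 stood above every control and IFN-γ tumor 3 among them, and the differences of 0.58 and 0.56 did not pass (exact permutation, p = 0.3 and 0.2). Ccl22 to Ccl17 differed by 0.49 with overlapping groups (exact permutation, p = 0.5). This difference was 0.65 with 0.1 CPM added in place of 0.5 and 0.38 with 1 CPM added.

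**Figure D4:**
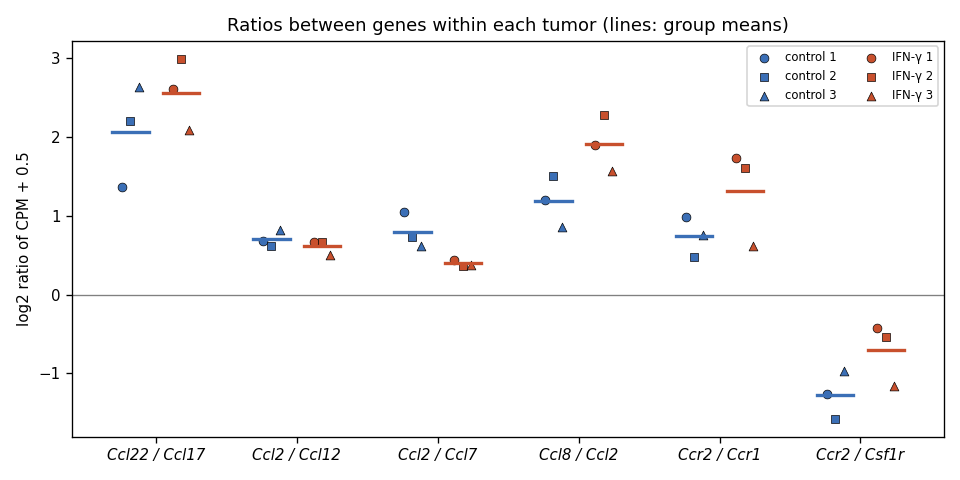
Log2 ratio of CPM plus 0.5 between 2 genes (y axis) within each tumor for the 6 ratios (x axis). Blue symbols are control tumors, red symbols IFN-γ tumors, and short lines the group means. The IFN-γ tumors lie above all controls for Ccl8 to Ccl2 and below all controls for Ccl2 to Ccl7. Both ratios hold Ccl2, and neither passed (exact permutation, adjusted p = 0.3). Among single genes tested, 15.1% had groups that did not overlap.

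The tumors differed in level for most of the 10 genes at once. IFN-γ tumor 2 was the highest of its group for 10 of the 10 genes and IFN-γ tumor 3 the lowest for 9, while control tumor 3 was the highest of its group for 8. The median log2 ratio of the 10 genes to the control mean was 0.54 in IFN-γ tumor 2, 0.095 in IFN-γ tumor 1 and -0.39 in IFN-γ tumor 3. Ccl17 followed the others least, with r of log2 CPM over the 6 tumors from -0.51 with Ccr2 to 0.52 with Ccl12.

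Sums of marker lists were set beside these levels. The summed level of 10 monocyte and macrophage markers was 2818 to 3409 CPM in the control group and 4134, 5069 and 2994 CPM in IFN-γ tumors 1, 2 and 3. None of the 10 markers was at 0, 8 had a log2 fold change above 0, and 0 passed the adjusted threshold. At an unadjusted p under 0.05 there were 6 (edgeR). Beside this count, and those of the lists that follow, stands a share of 10.2% of all genes tested. Mrc1, among these 6, was lower (log2 fold change -0.22), and Cd14 (-0.039) also stood below 0. Lyz2, at 1593 to 3463 CPM, made up most of the sum. Without IFN-γ tumor 3, 5 of the 10 passed, where 2.46% of all genes passed as higher and 0.723% as lower. Over the 6 tumors, r of log2 levels with this sum was 0.97 for Ccl8 and 0.94 for Ccr2, but 0.38 for Ccl2 and 0.43 for Ccl12. After the group means were taken out these were 0.97, 0.91, 0.90 and 0.92, so all 4 followed the sum from tumor to tumor inside a group. This was not particular to macrophage markers. Inside the groups, regulatory T cell markers had an r of 0.98 with Ccl8, and fibroblast markers 0.93 with Ccr2 and 0.95 with Ccl2. Neutrophil markers had lower values, 0.52 with Ccl8, 0.48 with Ccr2 and 0.23 with Ccl2. For 10 genes that respond to IFN-γ, Irf1 and Cxcl9 among them, the sum was 886 to 1550 CPM in the control group and 2680, 2782 and 1223 CPM in the IFN-γ tumors, and 0 of them passed, with 7 at an unadjusted p under 0.05 (7 passed without IFN-γ tumor 3, edgeR). Their r was 0.88 with Ccl8 and 0.89 with Ccr2, against 0.14 with Ccl2. Inside the groups these were 0.87, 0.79 and 0.64. The skin sum, high in IFN-γ tumor 3, had an r of -0.72 with Ccl8 and -0.78 with Ccl2. The part of these cells and of this response in the levels of Ccr2 and Ccl8 was not tested.

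Ly6c2, a marker of classical monocytes, had 5.56, 7.67 and 6.29 CPM in the control tumors and 6.56, 21.01 and 4.70 CPM in the IFN-γ tumors. It did not pass the threshold (log2 fold change 0.72, adjusted p = 0.684, edgeR). The sum of 6 classical monocyte markers was 375 to 479 CPM in the control group and 338 to 524 CPM in the IFN-γ group, and 0 of the 5 tested passed (3 at an unadjusted p under 0.05, edgeR). Ccr2 was thus high in IFN-γ tumors 1 and 2, of which tumor 1 had a sum of 435 CPM, inside the control range.

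The regulatory T cell markers, a list of 6 with none at 0, summed to 19.9, 25.3 and 26.3 CPM in controls against to 29.0, 40.4 and 12.3 CPM in the IFN-γ tumors, and 0 of the 6 passed, with 0 at an unadjusted p under 0.05 (edgeR). Foxp3 had 1.94, 2.88 and 2.97 CPM in controls against 3.19, 5.38 and 1.24 CPM in the IFN-γ tumors. Ccr4, the receptor of CCL17 and CCL22, had 0.563, 0.733 and 0.629 CPM in controls against 0.464, 1.34 and 0.309 CPM in the IFN-γ tumors, few reads in all. Ccr8, a receptor of tumor regulatory T cells, stood at 1.06 to 1.52 CPM in controls against at 1.34, 1.89 and 0.124 CPM in the IFN-γ tumors. The lowest of these, 2 reads in IFN-γ tumor 3, is within the floor of 3 counts. None of these 3 genes passed the threshold (edgeR, adjusted p from 0.863 to 0.966).

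**Figure D5:**
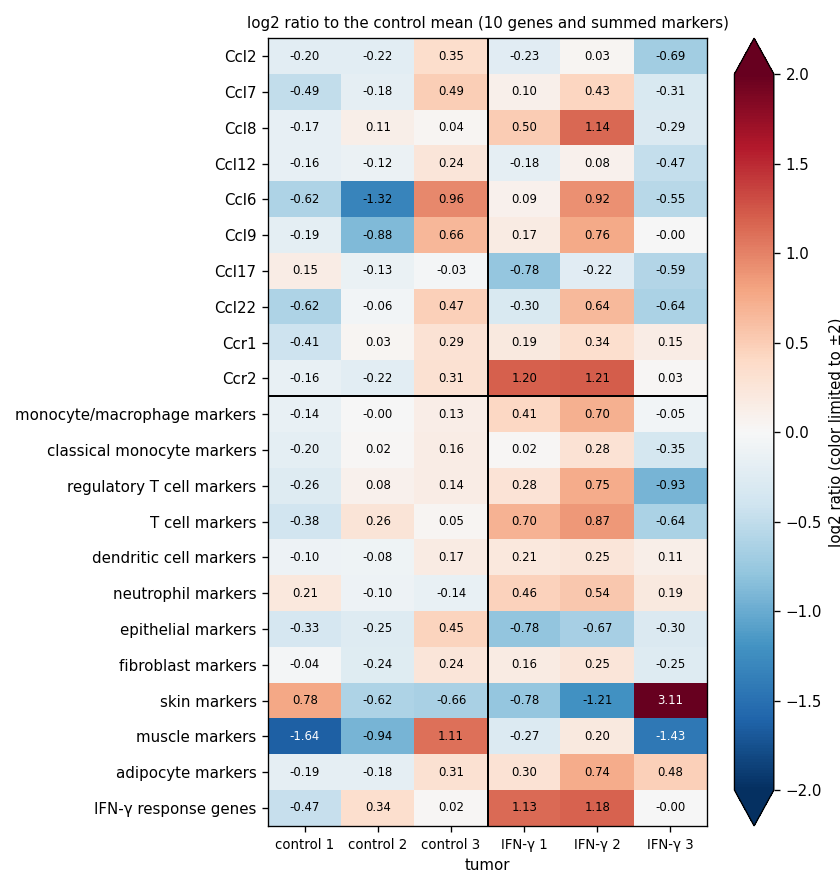
Log2 ratio to the control mean (color and printed value) of the 10 genes and of the summed levels of marker lists (y axis) in each of the 6 tumors (x axis). In IFN-γ tumor 3, Ccr2 (0.030) and the sum of the IFN-γ response genes (-0.0038) stood at the control level, and skin markers were 3.11 above it. Single genes of the IFN-γ response list ran from -0.67 (Cxcl10) to 0.63 (Socs1) in this tumor.

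The rest of the CC chemokine system was examined as a list of 27 genes, 15 ligands, 8 receptors and 4 atypical receptors. Of these, 15 passed the filter on low counts. With all 6 tumors, 0 passed the adjusted threshold (0.112% of all genes tested). At an unadjusted p under 0.05 there were 0 (10.2% of all genes, edgeR). Their median log2 fold change was 0.36, beside 0.0015 for all genes tested, with 12 above 0 (50.4% of all genes) and 3 below. Without IFN-γ tumor 3, 1 of 15 passed as higher, Ccl4, where 2.46% of all genes did. The median was then 0.57, beside -0.016 for all genes. Ccl3 and Ccl4, which attract T cells and macrophages, had log2 fold changes of 0.75 and 0.72 (adjusted p = 0.554 and 0.552, edgeR). Ccl4 had 4.25, 4.90 and 5.83 CPM in controls against 8.53, 12.3 and 3.96 CPM in the IFN-γ tumors. Ccl5, which attracts T cells, had 11.9, 15.2 and 18.3 CPM against 19.97, 38.5 and 9.71 CPM. For Ccl3, Ccl4 and Ccl5, IFN-γ tumors 1 and 2 lay above every control and IFN-γ tumor 3 did not, as for Ccr2 and Ccl8.

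The largest fold changes of this list were those of Ccrl2 (log2 0.83), a receptor that binds chemerin, and of Ccl3 and Ccl4, none past the threshold. Ccr3, the eotaxin receptor of eosinophils, was the one gene of the 15 tested whose groups did not overlap. Its IFN-γ group was the lower one, as for 7.5% of all genes tested, so 1 of 15 is near that share. It had 1.19, 1.41 and 1.31 CPM in controls against 0.871, 0.977 and 0.680 CPM in the IFN-γ tumors (log2 fold change -0.63, adjusted p = 0.535, edgeR). Its ligand Ccl11 stood at 4.88, 6.71 and 15.3 CPM in controls against at 12.9, 21.9 and 4.64 CPM in the IFN-γ tumors, with overlapping groups. Of the 27 genes, 12 were too low to test, Ccl19, Ccl20, the Ccl21 copies, Ccl26, Ccr6 and Ccr10 among them, each under 1 CPM in every tumor.

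The genes whose pattern over the 6 tumors was most like that of 4 members were listed by Pearson's r of log2 CPM, as a description. For Ccr2 they were Gm10658, Tpd52 and Hexa (r from 0.991 to 0.992), and for Ccl8 Usp18, 5031439G07Rik and Cmklr1 (r from 0.992 to 0.994). For Ccl2 they were Mplkip, Rpl36a-ps3 and Igsf3 (r from 0.987 to 0.989), and for Ccl22 Aoc3, Scn4b and Cacna1f (r from 0.983 to 0.993). With 6 libraries, high values of r are common: 118 genes exceeded 0.95 with Ccr2, 112 with Ccl8, 35 with Ccl2 and 35 with Ccl22.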

How the data were processed

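RNA-seq of 6 subcutaneous CT26.WT tumors (3 control, 3 IFN-γ) was analysed. Per gene and tumor, the deposited values are raw read counts in whole numbers. The submitters' processing notes name HISAT2 and mm10. The counting program, annotation and strandedness are not given in the sources used here, so reads of close copies could be split in unknown ways. Counts were tested with edgeR 4.0.16 (R 4.3.3): filterByExpr, TMM factors, quasi-likelihood test, Benjamini-Hochberg adjustment over all genes tested, threshold 0.05. Standard errors are the log2 fold change over the square root of F. Alternatives were DESeq2 1.42.0, limma 3.58.1 (voom), other scalings and filters, a replicate block and leaving out each tumor. Single values used exact permutation tests (SciPy 1.17.1), ratios a pseudocount of 0.5 CPM. The 10 genes, the marker lists and the rule for named genes (the members, genes sharing their receptors or ligands, 8 cell markers, the largest fold changes of the other CC genes and the 3 genes most like each of 4 members) were chosen with earlier results of these data known. One gene that this rule names is not reported here. The TATA box search was added after the sequences were seen. Promoter windows are RefSeq's. No pair of libraries appeared to be duplicates (smallest chi-square per gene 6.18). On simulated counts of 14892 genes, 3 against 3, edgeR recovered 69.5% of 200 genes changed 2-fold, with 9 false calls.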

Additional observations from a re-analysis of the deposited data

How the results depend on the processing

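Of the 140 alternative fits of the 10 genes' fold changes, 126 left direction and call as they were, 3 passed only under the alternative and 11 turned direction. With all 6 tumors, 0 of the 10 genes passed. The number was 1 with no filter on low counts (Ccr2), and from 0 to 2 when 1 tumor was left out, with 2 (Ccr2 and Ccl8) without IFN-γ tumor 3. For the other CC genes it was from 0 to 1. Among all genes, 12 were higher and 5 lower. These became 7 higher with library size only, 150 and 70 with no filter on low counts, 121 and 67 with DESeq2, and 3 lower with limma-voom. With 1 tumor left out they ran from 4 to 381 higher and from 2 to 112 lower, the highest without IFN-γ tumor 3.
With a replicate block, 5 genes were higher and 2 lower, and 0 of the 10. Deviations from the group means of same-numbered tumors had an r of -0.24, -0.0047 and -0.22, and the numbers were read as names without pairing.
The log2 fold change of Ccl22 turned to -0.0023 with upper-quartile factors, -0.025 with library size only, -0.048 with limma-voom and -0.019 with the replicate block, and its difference in mean CPM to -0.135 with library size only. With 1 tumor left out, log2 fold changes ran from -0.49 to 0.33 for Ccl22, from -0.093 to 0.42 for Ccl7 and from -0.20 to 1.21 for Ccl6, and differences in mean CPM from -2.57 to 1.88, from -4.27 to 17.2 and from -7.62 to 41.5. Apart from the choice of tumors, the cause was not tested. No ratio between genes turned direction with a pseudocount of 0.1 or 1 CPM or with a tumor left out. Depth limits Ccl17 most, with 13 to 30 reads a tumor.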

Other observations

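Cell types other than monocytes and regulatory T cells were read from lists of markers. The sum of 6 T cell markers was 40.5 to 63.4 CPM in the control group and 86.1, 97.2 and 33.8 CPM in IFN-γ tumors 1, 2 and 3. All 6 had a log2 fold change above 0, and 0 passed the adjusted threshold (edgeR), with 0 at an unadjusted p under 0.05. Dendritic cell markers, a source of CCL17 and CCL22, summed to 177 to 213 CPM in the controls and 205 to 226 CPM in the IFN-γ group. Most of this sum was Fscn1, an actin-bundling protein that other cells also make, at 144 to 176 CPM. Of the 7 dendritic cell markers, 5 had a log2 fold change above 0 and 0 passed, with 2 at an unadjusted p under 0.05 (edgeR). Those 2 were Xcr1 (log2 fold change 1.02) and Clec9a (0.92). Zbtb46 (-0.17) and Cd209a (-0.40) stood below 0. Flt3, a receptor of dendritic cell development, had 2.38, 2.65 and 4.0 CPM in the controls and 4.06, 4.28 and 4.14 CPM in the IFN-γ tumors. Its groups did not overlap, though narrowly so and without passing (adjusted p = 0.579, edgeR). Among all genes tested, 7.62% had groups that did not overlap with the IFN-γ group higher. Neutrophil markers summed to 28.9 to 37.1 CPM in the controls and 36.5 to 46.8 CPM in the IFN-γ group. Most of this sum was Csf3r, at 21.3 to 38.8 CPM. Of the 4 tested, 3 had a log2 fold change above 0 and 0 passed, with 1 at an unadjusted p under 0.05 (edgeR). S100a9 (-0.082) stood below 0, and Retnlg, too low to test, averaged 0.867 CPM in the controls and 0.198 CPM in the IFN-γ group. S100a8, a calcium-binding protein of neutrophils, stayed between 0.733 and 3.94 CPM. Ptprc, carried by all leukocytes, had 132, 181 and 175 CPM in control tumors and 252, 236 and 107 CPM in IFN-γ tumors. Ncr1, of natural killer cells, had 6.06, 11.1 and 11.1 CPM against 11.3, 15.7 and 3.83 CPM, and Adgre1, of macrophages, 181, 223 and 169 CPM against 307, 284 and 147 CPM. None of these 3 passed (edgeR, adjusted p from 0.678 to 0.958).

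Fibroblast markers summed to 2855 to 3960 CPM in the control group and 2819 to 3995 CPM in the IFN-γ group, and the epithelial list to 13.2 to 23.0 and 9.52 to 13.5 CPM. The 6 adipocyte markers summed to 102 to 144 CPM in the controls and 143 to 195 CPM in the IFN-γ group. Most of this sum was Fabp4, at 91.0 to 141 CPM, whose log2 fold change was 0.23. The median log2 fold change of the 6 markers was 2.17. With all 6 tumors, 0 of them passed and 5 had an unadjusted p under 0.05 (edgeR), against 10.2% of all genes tested. Without IFN-γ tumor 3, 4 of the 6 passed, where 2.46% of all genes passed as higher and 0.723% as lower. Muscle genes, at 121 to 813 CPM in the controls and 140 to 432 CPM in the IFN-γ group, had an r of 0.97 with Ccl7 and of 0.84 with Ccl2 over the 6 tumors. Control tumor 3, the highest for muscle genes, was also the highest control for Ccl2, Ccl7, Ccl12, Ccl6, Ccl9, Ccl22, Ccr1 and Ccr2. The part of adjoining tissue in these levels was not tested.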
